A study of Mus musculus with 6 samples.

Results

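The transcripts of 9 genes that carry death signals from the cell surface to apoptosis or necroptosis were examined in colon epithelial cells of mice with chemically induced colitis. They are the receptors Tnfrsf1a, Fas and Tnfrsf10b, the ligand Tnfsf10, the adaptor Fadd, the protease Casp8, the kinases Ripk1 and Ripk3, and the executor Mlkl. They were taken by gene symbol from the 55487 genes listed in the count table, and all 9 were found and passed the filter on low counts, as did 14650 genes in all. RNA-seq was performed on intestinal epithelial cells (IECs) from the colon, in 3 libraries from Nsd2 f/f mice and 3 libraries from Nsd2 Vil-KO mice. NSD2 is a methyltransferase that places the H3K36me2 mark on histone H3. Animals of both genotypes were labelled as given dextran sodium sulphate (DSS), a detergent-like polysaccharide that injures the colonic epithelium, so that neither genotype is an untreated control. The methods name C57BL/6J mice aged 2 months and drinking water with 2% DSS for 5 days, but not the day on which cells for RNA-seq were taken. Nsd2 f/f mice, labelled WT, carry Nsd2 flanked by loxP sites and no Cre. Nsd2 Vil-KO mice carry the same floxed alleles with Cre driven by the Villin promoter, which is active in intestinal epithelium, so other cells of the gut keep Nsd2. The study asked whether loss of epithelial NSD2 alters epithelial cell death during colitis, and these genes are the transcript side of the receptor-driven routes.

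TNF, Fas ligand and TRAIL bind receptors that carry a death domain on their cytoplasmic tail. The adaptor FADD then brings caspase-8 into a complex that starts apoptosis, whereas RIPK1 can direct the same receptors either to survival signalling or to cell death. When caspase-8 is blocked, RIPK1 and RIPK3 bind each other, RIPK3 phosphorylates MLKL, and MLKL opens the plasma membrane, which is necroptosis. In gut epithelium, caspase-8 and FADD are known to hold this second route in check. These proteins are controlled largely by binding, cleavage and phosphorylation, which RNA-seq does not measure.

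The libraries held 15439123 to 20350539 counted reads. Values of each genotype are listed in the order of its replicate numbers 1, 2 and 3. Levels are given as CPM, the counts scaled to a common library size, by the TMM method, and 3 counts in a library correspond to 0.146 to 0.242 CPM. Nsd2 was at 47.9, 51.2 and 24.6 CPM across Nsd2 f/f libraries and at 24.2, 10.4 and 20.8 CPM across Nsd2 Vil-KO libraries. Its range in both genotypes nearly met, with the library labelled Nsd2 f/f replicate 3 just above Nsd2 Vil-KO replicate 1. The log2 fold change of Nsd2 was −1.16 (standard error 0.39, 95% interval −2.09 to −0.23). The libraries labelled Nsd2 f/f replicate 3 and Nsd2 Vil-KO replicate 2 stood apart: their Spearman correlation across genes with the remaining 4 averaged 0.933, and that among the remaining 4 averaged 0.981. Mitochondrial genes took 19.6% of the counts in Nsd2 f/f replicate 3 and 5.51% to 9.13% in the others. Values in the 4 remaining libraries are given beside those of all 6. Epithelial markers summed to between 19644 and 25595 CPM in every library. T cell and intraepithelial lymphocyte markers, with the leukocyte gene Ptprc among them, summed to between 16.2 and 63.6 CPM. Epcam and Cdh1 stayed within 1.38-fold and 1.32-fold ranges, but some other epithelial markers were uneven. In Nsd2 f/f replicate 3 and Nsd2 Vil-KO replicate 2, Muc2 was at 3512 and 2246 CPM, against 4310 to 6857 CPM elsewhere. Lgals4 was at 7513 and 9261 CPM there, against 3584.3 to 4337.5 CPM, and Car1 spanned 111.7 to 1317 CPM. In bulk samples, fewer cells of a type and less RNA per cell cannot be told apart.

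Promoters were read for the 8 members present in the RefSeq promoter table (GRCm38.p6), and Tnfrsf10b had no entry. The 250 bases before each start were searched on both strands for GAS (TTCNNNGAA, the interferon-gamma activated site), ISRE (GAAANNGAAA, the motif of interferon-activated complexes) and kappaB. GAS letters were present before a start of 3 of 8 members, Tnfrsf1a, Fas and Ripk1, and in 8.13% of 27025 genes with an entry. Neither ISRE nor kappaB letters were present in the 8 members, against 3.46% and 4.46% of all genes. With GAS the sole motif matched, no overlap between motifs arose. The region of Fas, the cell-surface receptor with a match outside its annotated exons, is shown with the match in capitals, 93 to 85 bases before the start. That of Mlkl, the executor of necroptosis and a gene known to respond to interferon, is shown as a window with none of the 3 motifs. They lie at chr19:34290409-34290658 (plus strand) and chr8:111338206-111338455 (minus strand).
Fas: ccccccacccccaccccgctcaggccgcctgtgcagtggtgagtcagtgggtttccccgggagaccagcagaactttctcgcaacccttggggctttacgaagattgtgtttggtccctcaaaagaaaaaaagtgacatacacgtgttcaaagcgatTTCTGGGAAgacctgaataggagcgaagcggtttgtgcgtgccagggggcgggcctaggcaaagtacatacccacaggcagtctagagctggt
Mlkl: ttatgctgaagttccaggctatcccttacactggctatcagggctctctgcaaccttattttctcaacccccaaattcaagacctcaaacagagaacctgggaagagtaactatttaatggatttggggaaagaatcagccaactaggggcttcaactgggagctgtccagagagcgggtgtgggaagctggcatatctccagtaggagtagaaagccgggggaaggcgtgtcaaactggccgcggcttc
A match of letters is a description of the sequence and was not tested as a binding site.

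None of the 9 genes passed a test of the difference between genotypes. The screening criterion used here was a fold change above 1.2 with an unadjusted p below 0.05 in edgeR's quasi-likelihood test. Its fold limit and p limit follow the study's results, which do not say whether that p was adjusted, whereas its methods name an adjusted p and another tool (Ballgown on FPKM). It was passed by 0 of 9 members, against 3.29% of all genes tested. After Benjamini-Hochberg adjustment edgeR left 0 of 9 below an adjusted p of 0.05, and the background was 0% of all genes, with a smallest adjusted p of 0.992. At an unadjusted p below 0.05 the count of members was also 0 with edgeR, and DESeq2 gave 4 genes with an adjusted p below 0.05 over the whole table, none of them a member. The log2 fold change (Nsd2 Vil-KO over Nsd2 f/f) was positive in 5 members and negative in 4, with a median of 0.05, beside 0.0012 over all tested genes. In 2 of 9 members, Ripk3 and Ripk1, the libraries of the genotypes did not overlap. Such genes made up 9.9% of those tested, 5.21% with every Nsd2 Vil-KO library above (here 1 member) and 4.7% with every one below (here 1 member). An exact permutation test of a single gene with 3 libraries per genotype cannot reach a p below 0.1. The plot of CPM by library shows the values behind these counts.

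**Figure D1:**
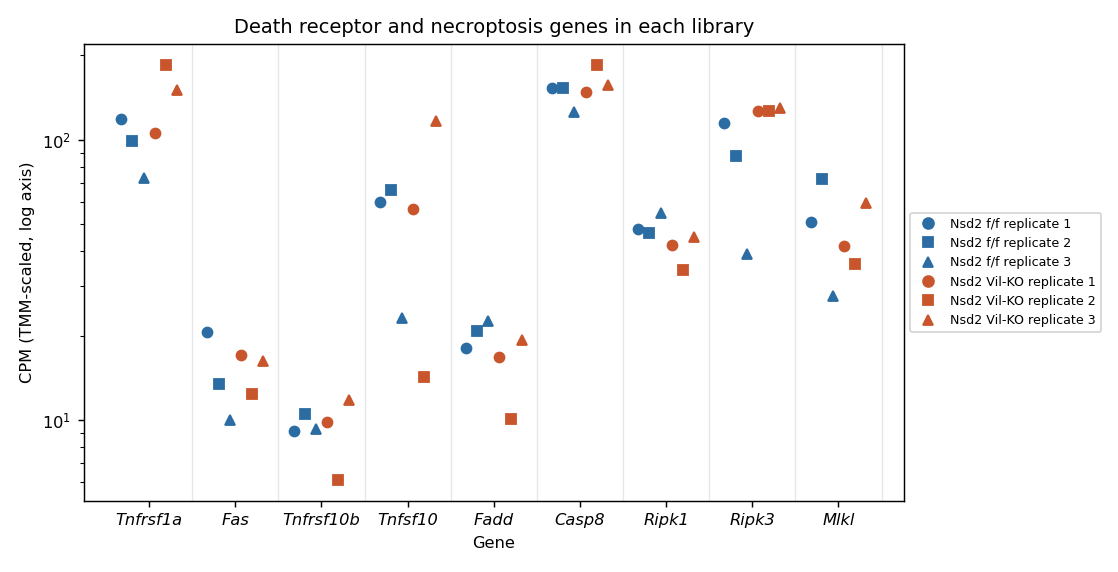
Each point is 1 library, at its TMM-scaled CPM on a log axis, for the 9 genes on the horizontal axis; blue points are Nsd2 f/f and orange points are Nsd2 Vil-KO, with a marker shape for each replicate number. Ripk3 shows 3 orange points close together between 126.5 and 129.9 CPM above 3 spread blue points, Ripk1 shows the orange points below the blue ones, and Tnfsf10 spans 14.3 to 117.2 CPM.

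The members spanned a wide range of abundance in the epithelium. Because CPM favours long transcripts, levels of different genes were compared as CPM per kilobase of exon (merged exons of GENCODE vM21), as the mean ± SD over all 6 libraries. Casp8 stood highest, at 53.0 ± 6.56 (SD, n = 6), followed by Tnfrsf1a at 47.1 ± 15.5 and Ripk3 at 45.4 ± 15.5. These 3 genes lay above 91.6% to 92.9% of tested genes by level and could not be put in order, since Casp8 exceeded Tnfrsf1a in 4 of 6 libraries and Tnfrsf1a exceeded Ripk3 in 3 of 6. Mlkl followed at 20.9 ± 7.13 and was below Ripk3 in 6 of 6 libraries, then Tnfsf10 at 10.7 ± 6.95, below Mlkl in 6 of 6. Tnfsf10 exceeded Fas (7.26 ± 1.84) in 4 of 6 libraries and Fas exceeded Ripk1 (5.40 ± 0.81) in 5 of 6. The kinase Ripk1 thus had a lower per-length level than its partner Ripk3 in every library. Fadd was at 4.60 ± 1.12 and lay below Ripk1 in 6 of 6 libraries. Tnfrsf10b was lowest at 1.73 ± 0.35, and only Fadd and Tnfrsf10b were neighbours whose ranges did not overlap. With the longest transcript in place of merged exons, Fas was at 9.21, Ripk1 at 6.97 and Tnfrsf10b at 2.97.

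**Figure D2:**
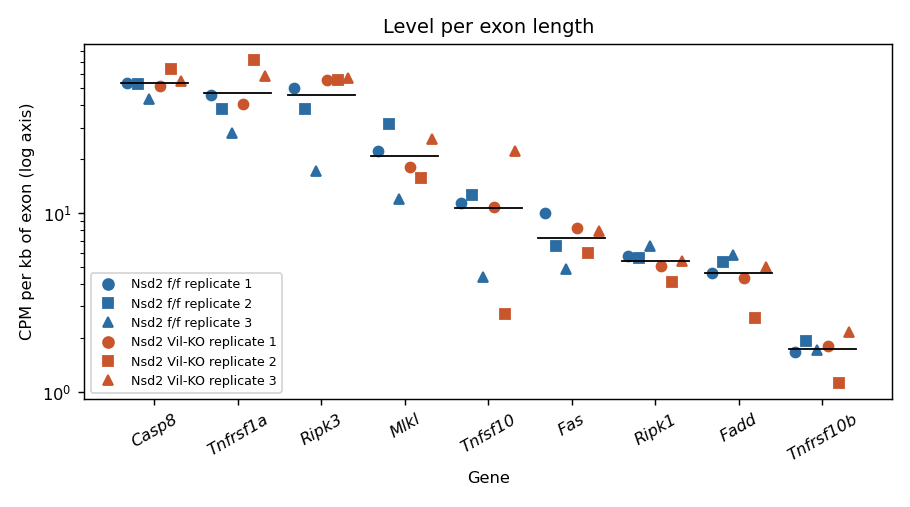
Each point is 1 library at its CPM per kilobase of exon on a log axis, in blue for Nsd2 f/f and orange for Nsd2 Vil-KO, and each black bar is the mean of the 6 libraries. Casp8, Tnfrsf1a and Ripk3 overlap at the top with means of 53.0, 47.1 and 45.4, and Tnfrsf10b sits alone at the bottom with a mean of 1.73.

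Among the receptors, Tnfrsf1a, the main receptor for TNF on epithelial cells, had the highest levels. Tnfrsf1a (ENSMUSG00000030341, chromosome 6, 125349362 to 125362484, GRCm38) was at 118.2, 98.9 and 72.9 CPM across Nsd2 f/f libraries and at 105.4, 185.3 and 151.0 CPM across Nsd2 Vil-KO libraries. The Nsd2 Vil-KO replicates 2 and 3 were above every Nsd2 f/f library, while replicate 1 lay within their range. Means were 96.6 ± 22.8 and 147.2 ± 40.1 CPM (SD, n = 3 each), a log2 fold change of 0.61 (standard error 0.27, 95% interval −0.04 to 1.26), and the exact permutation test gave p = 0.2 (two-sided). The value was 0.25 in the 4 libraries left after Nsd2 f/f replicate 3 and Nsd2 Vil-KO replicate 2, the lowest and the highest library of this gene, were set aside. Left out singly, Nsd2 f/f replicate 1 gave 0.78 and Nsd2 Vil-KO replicate 1 gave 0.80, and the screening criterion was passed in each of these fits, in which 3.12% and 3.67% of all genes passed it.

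Fas, the receptor of Fas ligand (ENSMUSG00000024778, chromosome 19, 34290666 to 34327772), was at 20.7, 13.4 and 10.02 CPM across Nsd2 f/f libraries and at 17.1, 12.4 and 16.2 CPM across Nsd2 Vil-KO libraries. Every Nsd2 Vil-KO library fell within the range of the Nsd2 f/f libraries. Means were 14.7 ± 5.44 and 15.2 ± 2.51 CPM (SD, n = 3 each), a log2 fold change of 0.05 (standard error 0.32, interval −0.70 to 0.79). The value was −0.03 in the 4 libraries, so no direction can be given. Tnfrsf10b, the mouse TRAIL receptor (ENSMUSG00000022074, chromosome 14, 69767472 to 69784411), was at 9.12, 10.5 and 9.29 CPM across Nsd2 f/f libraries and at 9.80, 6.10 and 11.8 CPM across Nsd2 Vil-KO libraries. Its lowest and highest libraries were both Nsd2 Vil-KO. The log2 fold change was −0.06 (standard error 0.31, interval −0.79 to 0.68) and 0.15 in the 4 libraries.

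Tnfsf10 encodes TRAIL, the ligand of Tnfrsf10b and the only ligand among the members (ENSMUSG00000039304, chromosome 3, 27317028 to 27342427). It was at 60.0, 66.2 and 23.0 CPM across Nsd2 f/f libraries and at 56.6, 14.3 and 117.2 CPM across Nsd2 Vil-KO libraries. The most and the least of this transcript were thus both measured in Nsd2 Vil-KO mice, an 8.22-fold range over the 6 libraries. Means were 49.8 ± 23.3 and 62.7 ± 51.7 CPM (SD, n = 3 each), a log2 fold change of 0.33 (standard error 0.71, interval −1.34 to 2.0), and the exact permutation test gave p = 1 (two-sided). The value was 0.47 in the 4 libraries and −0.49 without Nsd2 Vil-KO replicate 3. Its SD of log2 CPM over the 6 libraries, 1.11, was larger than that of 90.7% of tested genes, and the median gene had 0.41.

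Fadd, the adaptor that links death receptors to caspase-8 (ENSMUSG00000031077, chromosome 7, 144577318 to 144582463), was at 18.1, 20.7 and 22.6 CPM across Nsd2 f/f libraries and at 16.8, 10.04 and 19.4 CPM across Nsd2 Vil-KO libraries. The genotypes overlapped through Nsd2 Vil-KO replicate 3, and replicate 2 was the lowest library. Means were 20.5 ± 2.25 and 15.4 ± 4.82 CPM (SD, n = 3 each), a log2 fold change of −0.41 (standard error 0.28, interval −1.08 to 0.26). The value was −0.09 in the 4 libraries. Exons of Fadd share 239 of 3903 bases with Faddos on the opposite strand, and whether the counting used strand is not given in the sources used here.

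Casp8, the initiator caspase of the receptor pathway and the brake on necroptosis (ENSMUSG00000026029, chromosome 1, 58795374 to 58847503), was the steadiest member. It was at 153.5, 152.6 and 125.2 CPM across Nsd2 f/f libraries and at 147.8, 184.4 and 157.2 CPM across Nsd2 Vil-KO libraries. The 6 libraries lay within a 1.47-fold range, and its SD of log2 CPM, 0.18, was larger than that of only 11.7% of tested genes. Means were 143.8 ± 16.1 and 163.1 ± 19.0 CPM (SD, n = 3 each), a log2 fold change of 0.18 (standard error 0.18). The interval of −0.25 to 0.62 is the narrowest among the members after that of Ripk1. In the 4 libraries the value was 0.0053.

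Ripk1, the kinase at the branch between survival and death (ENSMUSG00000021408, chromosome 13, 34002363 to 34037147), was lower in each Nsd2 Vil-KO library than in each Nsd2 f/f library by a small margin. It was at 47.9, 46.6 and 54.8 CPM across Nsd2 f/f libraries and at 42.2, 34.2 and 44.9 CPM across Nsd2 Vil-KO libraries. The highest Nsd2 Vil-KO library, replicate 3, lay just under the lowest Nsd2 f/f library, replicate 2. Means were 49.7 ± 4.41 and 40.4 ± 5.53 CPM (SD, n = 3 each), a log2 fold change of −0.30 (standard error 0.18, interval −0.72 to 0.12), and the exact permutation test gave p = 0.1 (two-sided), the smallest it can give. The value was −0.11 in the 4 libraries. Exons of Ripk1 share 241 of 8344 bases with Serpinb6a on the opposite strand and 511 with the processed pseudogene Gm17084, so part of its count is uncertain.

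Ripk3, the kinase that activates MLKL (ENSMUSG00000022221, chromosome 14, 55784995 to 55788865), had the most positive log2 fold change of the members and a very unequal spread in the 2 genotypes. It was at 114.8, 87.7 and 39.1 CPM across Nsd2 f/f libraries and at 126.8, 126.5 and 129.9 CPM across Nsd2 Vil-KO libraries. Every Nsd2 Vil-KO library was above every Nsd2 f/f library, and the 3 Nsd2 Vil-KO values were nearly equal while Nsd2 f/f replicate 3 was far below the others. Means were 80.5 ± 38.4 and 127.8 ± 1.87 CPM (SD, n = 3 each), a log2 fold change of 0.66 (standard error 0.36, interval −0.19 to 1.52), and the exact permutation test gave p = 0.1 (two-sided), the smallest it can give. The value was 0.34 without Nsd2 f/f replicate 3, the library with 19.6% of counts in mitochondrial genes. In the 4 libraries it was 0.35 and passed the screening criterion, as it did at 1.01 without Nsd2 f/f replicate 1 and at 0.78 with a covariate for the 2 libraries that stood apart, while the smallest adjusted p of Ripk3 in edgeR over these 3 settings was 0.443. The criterion was passed by 11% of all genes in the 4 libraries, by 3.12% without Nsd2 f/f replicate 1 and by 7.82% with the covariate, against 3.29% in all 6 libraries.

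Mlkl, the pore-forming executor (ENSMUSG00000012519, chromosome 8, 111311797 to 111338177), had widely spread values in Nsd2 f/f mice. It was at 51.0, 72.7 and 27.6 CPM across Nsd2 f/f libraries and at 41.8, 35.9 and 59.3 CPM across Nsd2 Vil-KO libraries. The Nsd2 Vil-KO libraries all lay inside the range of the Nsd2 f/f libraries. Means were 50.5 ± 22.6 and 45.7 ± 12.2 CPM (SD, n = 3 each), a log2 fold change of −0.15 (standard error 0.36, interval −1.01 to 0.72), and the exact permutation test gave p = 1 (two-sided). The value was −0.28 in the 4 libraries and 0.22 without Nsd2 f/f replicate 2, its highest library.

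**Figure D3:**
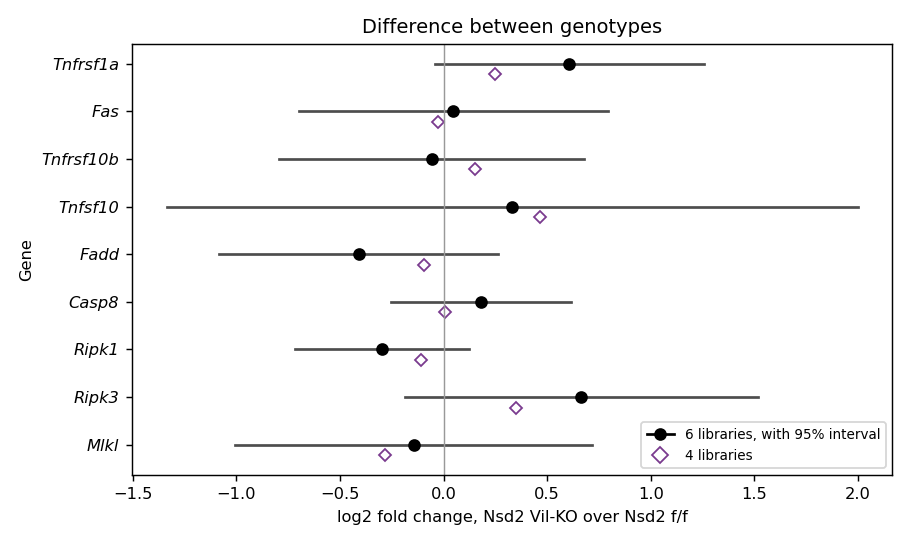
Filled circles are the log2 fold changes of Nsd2 Vil-KO over Nsd2 f/f from edgeR with 95% intervals, over 6 libraries, and open diamonds are the values in the 4 libraries without Nsd2 f/f replicate 3 and Nsd2 Vil-KO replicate 2. Every interval includes 0, those of Ripk1 and Casp8 are the narrowest and that of Tnfsf10 the widest, from −1.34 to 2.0. The diamonds of Tnfrsf1a (0.25), Fas (−0.03), Fadd (−0.09), Casp8 (0.0053), Ripk1 (−0.11) and Ripk3 (0.35) lie closer to 0 than the circles. Those of Tnfrsf10b (0.15), Tnfsf10 (0.47) and Mlkl (−0.28) lie farther from 0.

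Ratios within a library, chosen after the values were seen, set partners side by side without dependence on library scaling. CPM of Ripk3 relative to Ripk1 was 2.40, 1.88 and 0.714 across Nsd2 f/f libraries and 3.0, 3.70 and 2.90 across Nsd2 Vil-KO libraries. Every Nsd2 Vil-KO ratio was above every Nsd2 f/f ratio, which joins the separate directions of the 2 genes and is no independent result. Ripk3 relative to Mlkl was 2.25, 1.21 and 1.42 across Nsd2 f/f libraries and 3.04, 3.52 and 2.19 across Nsd2 Vil-KO libraries, so the genotypes overlapped through Nsd2 f/f replicate 1 and Nsd2 Vil-KO replicate 3. Casp8 relative to Fadd was 8.46, 7.36 and 5.54 across Nsd2 f/f libraries and 8.79, 18.4 and 8.12 across Nsd2 Vil-KO libraries, with Nsd2 Vil-KO replicate 2 far above the rest. Casp8 relative to Cflar, whose product cFLIP competes with caspase-8 for FADD, was 2.80, 2.99 and 2.48 across Nsd2 f/f libraries and 2.40, 3.81 and 2.64 across Nsd2 Vil-KO libraries, and the genotypes overlapped.

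Each member had its lowest value in either of the 2 libraries that stood apart. The lowest library was Nsd2 f/f replicate 3 for 5 members (Tnfrsf1a, Fas, Casp8, Ripk3 and Mlkl) and Nsd2 Vil-KO replicate 2 for the other 4 (Tnfrsf10b, Tnfsf10, Fadd and Ripk1). Over all tested genes, these were the lowest library for 25.5% and 29.2% of genes. Tnfrsf1a and Casp8 were lowest in Nsd2 f/f replicate 3 and highest in Nsd2 Vil-KO replicate 2, at −0.68 and 0.67 from the mean log2 CPM of the 6 libraries for Tnfrsf1a and −0.28 and 0.27 for Casp8. Fadd and Ripk1 ran the other way between the same libraries, at 0.38 and −0.79 for Fadd and 0.29 and −0.38 for Ripk1. Tnfsf10 was low in both, at −0.97 and −1.66, as was Mlkl at −0.72 and −0.35. Ripk3 was low in Nsd2 f/f replicate 3 alone, at −1.30. The part of these 2 libraries' differences from the rest in the genotype comparison was not tested beyond the values without them.

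**Figure D4:**
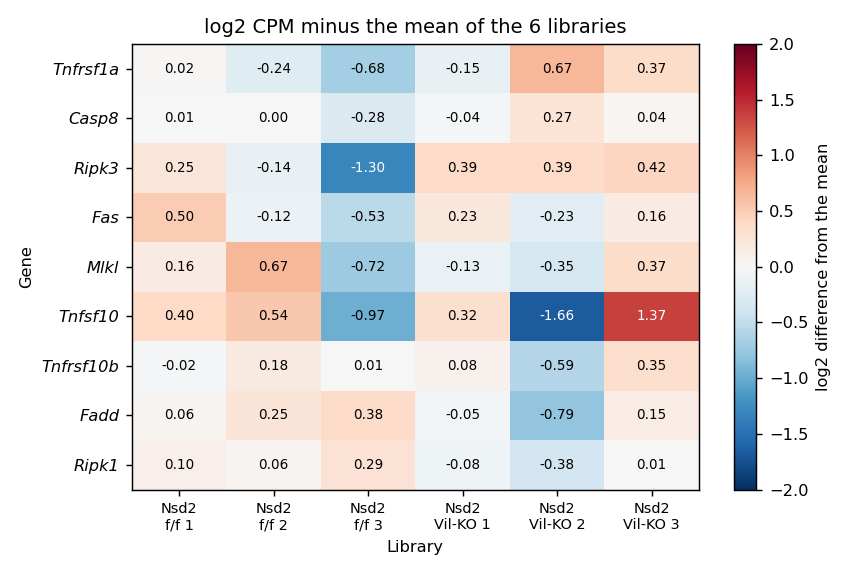
Each cell is the log2 CPM of a gene in a library minus the mean of that gene over the 6 libraries, red above and blue below, with columns for the 3 Nsd2 f/f and the 3 Nsd2 Vil-KO libraries. The deepest cells lie in the columns of Nsd2 f/f replicate 3 (Ripk3, −1.30), Nsd2 Vil-KO replicate 2 (Tnfsf10, −1.66) and Nsd2 Vil-KO replicate 3 (Tnfsf10, 1.37), and Casp8 stays within −0.28 to 0.27.

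Genes whose log2 CPM ran most like that of a member were listed by Pearson's r over the 6 libraries, which share the 2 libraries that stood apart. Likeness above 0.95 was reached by 37 genes for Fas, 40 for Mlkl, 70 for Tnfrsf1a, 136 for Ripk1, 173 for Ripk3, 185 for Casp8, 194 for Tnfrsf10b, 226 for Tnfsf10 and 236 for Fadd. Fas was closest to Atp2c1 (r = 0.998) and Pim1 (0.990), and Tnfrsf1a to Rbm34 (0.998) and Alkbh5 (0.997). Ripk1 was closest to Zbtb38 (0.9995) and to Clca1 (0.996), a goblet cell gene. Ripk3 ran closest to Ndst1 and Nfxl1 (0.997 and 0.996), Casp8 to Nfic and Ctps (0.997 and 0.995), and Mlkl to BC052040 and Ints6 (0.994 and 0.993). Tnfrsf10b, Tnfsf10 and Fadd had as their closest pairs Eya3 and Tubgcp4, Usp24 and Atic, and Chodl and Mkks, with r between 0.995 and 0.999. With 6 points and so many genes compared, these are descriptions of the libraries.

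The surrounding pathway was followed in 52 further genes, of which 50 passed the filter. None of them passed the screening criterion with edgeR, and 0 had an unadjusted p below 0.05, each against 3.29% of all genes tested. Their log2 fold changes were positive in 31 and negative in 19, with a median of 0.08. Over all tested genes, 7346 were positive and 7304 negative, with a median of 0.0012. The genotypes did not overlap in 4 of the 50, beside 9.9% of all tested genes, and they are named after their values were seen. They were Tnfrsf1b (the other TNF receptor), Xiap (an inhibitor of caspases), Casp9 (the initiator of the mitochondrial route) and Diablo (which antagonises XIAP). In each of these every Nsd2 Vil-KO library was above every Nsd2 f/f library, as in 5.21% of all tested genes, so the 8% of the pathway genes is near the background and is no result about them. Diablo had only 15 to 50 counts in a library. Its exons share 1193 of 6166 bases with Gm49027 on the same strand and 1326 with B3gnt4 on the opposite strand, so part of its count is uncertain. Tnfrsf1b was at 150.2, 108.1 and 32.2 CPM across Nsd2 f/f libraries and at 157.8, 155.2 and 184.3 CPM across Nsd2 Vil-KO libraries, so that, as for Ripk3, its lowest library was Nsd2 f/f replicate 3. Its log2 fold change was 0.77 (standard error 0.49, interval −0.38 to 1.93). Xiap was at 75.7, 72.8 and 78.4 CPM against 87.5, 89.4 and 106.0 CPM, a log2 fold change of 0.32 (standard error 0.16, interval −0.06 to 0.70).

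By role, the median log2 fold change of the pathway genes was −0.36 in the 4 tested ligands and 0.24 in 9 receptors and decoys. It was 0.05 in 16 genes of the receptor complex and its ubiquitin chains and 0.10 in 8 genes listed as brakes. It was −0.20 in 4 genes of other routes to RIPK3 and 0.08 in 9 listed as executioner caspases and targets. Roles were assigned from general knowledge and not tested, with Cyld and Spata2 among the brakes and Casp9, an initiator, in the last list. Tnfsf12 (−0.81) and Tnfsf14 (−0.96) were the negative ligands, with 4 to 27 and 0 to 31 counts in a library. Tnf (0.14) and Ltb (0.08) were positive. Exons of Tnfsf12 share 731 of 1515 bases with Tnfsfm13 on the same strand. Tnf, the ligand of Tnfrsf1a, was at 32.1, 15.01 and 2.75 CPM across Nsd2 f/f libraries and at 23.3, 16.1 and 15.9 CPM across Nsd2 Vil-KO libraries. Nsd2 f/f held both its highest and its lowest library, and the log2 fold change was 0.14 (standard error 0.70, interval −1.53 to 1.80) and −0.26 in the 4 libraries. Macrophage and monocyte markers were also highest in Nsd2 f/f replicate 1 and lowest in Nsd2 f/f replicate 3, at 404.1 and 106.4 summed CPM with 170.0 to 266.0 in the other 4. Cd14 gave 233.7 and 99.1 CPM of those sums and was itself highest in Nsd2 Vil-KO replicate 3, at 245.2 CPM. The remaining markers of that list were each highest in Nsd2 f/f replicate 1 and lowest in Nsd2 f/f replicate 3. The part of these cells in the Tnf values was not tested. Fasl, the ligand of Fas, had 4, 6 and 0 counts across Nsd2 f/f libraries and 15, 5 and 0 counts across Nsd2 Vil-KO libraries, and did not pass the filter. A difference in Fasl was not detectable at this depth.

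Cflar, the brake on caspase-8, was at 54.7, 51.0 and 50.4 CPM across Nsd2 f/f libraries and at 61.6, 48.4 and 59.6 CPM across Nsd2 Vil-KO libraries, and the genotypes overlapped (log2 fold change 0.12, standard error 0.17, interval −0.28 to 0.51).

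Interferon is known to raise transcription of several members of this pathway, and a list of 20 interferon-response genes was set beside them. Their summed level was 1605, 3650 and 531 CPM across Nsd2 f/f libraries and 996, 392 and 984 CPM across Nsd2 Vil-KO libraries. It was highest in Nsd2 f/f replicate 2 and lowest in both libraries that stood apart. The log2 fold change was negative in 20 of 20 of these genes, with a median of −1.49. The screening criterion was passed by 5 of 20, all lower, beside 1.65% of all genes tested that were lower. The number of these calls changed with the libraries and the model. It was 0 without Nsd2 f/f replicate 2 (17 of 20 negative, median −0.58) and 0 without Nsd2 Vil-KO replicate 2 (median −1.20). It was 3 without Nsd2 Vil-KO replicate 1 and 16 without Nsd2 f/f replicate 3, where 3.67% and 3.38% of all genes passed. With a replicate block the count was also 0, and in the 4 libraries, where 11% of all genes passed, it was 10. With DESeq2 it was 10, beside 4.32% of all genes. With limma-voom and with the covariate for the 2 libraries that stood apart it was 13, beside 9.83% and 7.82%. The value for Isg15 was −2.40 (standard error 0.89), which passed, but it was −1.42 without Nsd2 f/f replicate 2 and did not pass there or in 5 other alternatives. For Irf7 it was −1.63 (standard error 0.70), which did not pass, −0.68 without Nsd2 f/f replicate 2, and it passed in 6 alternatives.

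Zbp1, a nucleic acid sensor that activates RIPK3 and is itself an interferon-response gene, was at 194.2, 313.7 and 24.2 CPM across Nsd2 f/f libraries and at 138.9, 26.1 and 167.7 CPM across Nsd2 Vil-KO libraries. Like the summed interferon list, it was highest in Nsd2 f/f replicate 2 and lowest in both libraries that stood apart. Its log2 fold change was −0.68 (standard error 0.92, interval −2.85 to 1.49) and 0.03 without Nsd2 f/f replicate 2. In the 4 libraries it was −0.72 and passed the screening criterion, as did 11% of all genes there. Mlkl shared the same highest and the same pair of lowest libraries, and Tnfsf10 shared the lowest pair but was highest in Nsd2 Vil-KO replicate 3, where the summed interferon list was at 984 CPM. Ripk3 did not share the pair, since it was at 126.5 CPM in Nsd2 Vil-KO replicate 2, where the list had its lowest sum. Over all tested genes, the lowest library was Nsd2 f/f replicate 3 for 25.5% and Nsd2 Vil-KO replicate 2 for 29.2%. Mlkl was at 51.0 CPM in Nsd2 f/f replicate 1 (list at 1605 CPM) and 59.3 CPM in Nsd2 Vil-KO replicate 3. The part of interferon in these values was not tested.

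**Figure D5:**
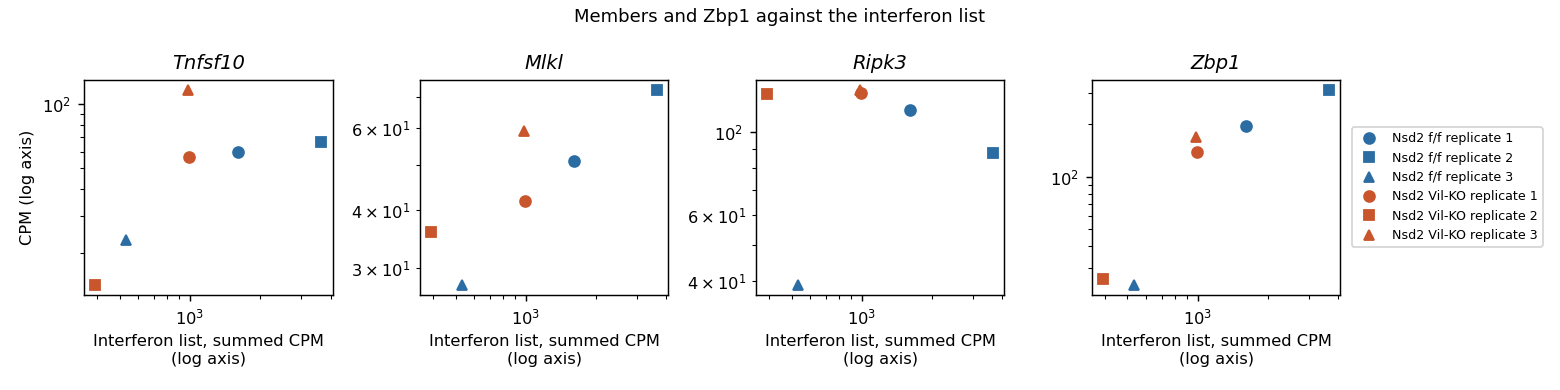
Each panel plots the CPM of a gene against the summed CPM of the 20 interferon-response genes in the same library, both on log axes, with Nsd2 f/f in blue and Nsd2 Vil-KO in orange. Zbp1 and Mlkl are highest where the list is at 3650 CPM and lowest in the libraries at 392 and 531 CPM, Tnfsf10 is highest at 984 CPM, and Ripk3 is at 126.5 CPM in the library with the lowest sum.

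Markers of cells other than epithelium were compared with the members, since the ligands and Ripk3 are also expressed in immune cells. T cell and intraepithelial lymphocyte markers (8 of 8 above 0) summed to 63.6, 49.6 and 16.2 CPM across Nsd2 f/f libraries and 56.1, 21.6 and 27.0 CPM across Nsd2 Vil-KO libraries. Ptprc, which is not specific to T cells, gave 30.7, 19.1 and 5.74 CPM of these sums in Nsd2 f/f and 18.4, 5.71 and 8.68 CPM in Nsd2 Vil-KO. The sum was lowest in Nsd2 f/f replicate 3, where Ripk3 was lowest, but next lowest in Nsd2 Vil-KO replicates 2 and 3, where Ripk3 was at 126.5 and 129.9 CPM. Neutrophil markers (6 genes) summed to 884.5, 308.0 and 206.6 CPM across Nsd2 f/f libraries and 289.5, 2350 and 197.3 CPM across Nsd2 Vil-KO libraries. The sum was highest in Nsd2 Vil-KO replicate 2, where Tnfrsf1a and Casp8 were highest, and lowest in Nsd2 Vil-KO replicate 3, where both were second highest. Of the highest sum, Ly6g gave 1355, S100a8 573.9 and S100a9 404.9 CPM, while Csf3r was at 0.666 CPM, its lowest value. Retnlg and Mmp8, the remaining markers of that list, were at 13.04 and 2.496 CPM there. Both were above every other library except Nsd2 f/f replicate 1. Ly6g also gave 163.1 of the 197.3 CPM in Nsd2 Vil-KO replicate 3 and 197.0 of the 206.6 CPM in Nsd2 f/f replicate 3. S100a8 and S100a9 were lowest in Nsd2 f/f replicate 3, at 3.07 and 4.69 CPM, where Tnfrsf1a and Casp8 were also lowest. Retnlg and Mmp8 were lowest in Nsd2 Vil-KO replicate 3. B and plasma cell markers (5 genes) summed to 5.77 to 47.9 CPM, fibroblast markers (6 genes) to 5.05 to 262.8 CPM, endothelial markers (4 genes) to 0.610 to 3.32 CPM and smooth muscle markers (4 genes) to 1.21 to 17.0 CPM. No marker was at 0 in all 6 libraries, and the part of these cells in the members' values was not tested.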

How the data were processed

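RNA-seq of colon IECs after DSS was analysed in 3 libraries of each genotype, Nsd2 f/f and Nsd2 Vil-KO. The deposited values are raw counts, the number of reads that the authors assigned to each Ensembl gene. The submitters' processing notes name HISAT2 and mm10, and the methods describe polyA selection, directional libraries and adapter trimming, while the labels name another library kit. The counting program, annotation and use of strand are not given in the sources used here. The labels give no batch, date or animal number. Where nothing says that libraries came from separate animals, p-values measure the spread between these libraries only.

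The 9 members, the lists of 52 pathway, 20 interferon and cell type marker genes and the tests were chosen with earlier results of these data known. Named were the members, Nsd2, any pathway gene past the screening criterion, Tnf, Fasl, Cflar, Zbp1, Isg15, Irf7 and the 2 genes most correlated with each member. The rule also held 2 genes left out of this text. Tnfrsf1b, Xiap, Casp9, Diablo, Ltb, Tnfsf12, Tnfsf14, Cyld and Spata2 were named outside the rule, after their values were seen. All 6 count columns were used and 0 were left out. Counts were normalised by TMM in edgeR 4.0.16 (R 4.3.3), filtered by filterByExpr, and tested for genotype alone with its quasi-likelihood method (robust) over 14650 genes, and p-values were adjusted after Benjamini and Hochberg. The biological coefficient of variation was 41.2%. CPM were used for display, and log2 CPM carried a prior count of 2. Exact permutation tests used the 3-against-3 assignments. Deviations of same-numbered libraries from their genotype means correlated across genes at 0.32, −0.35 and −0.11 for numbers 1, 2 and 3. Those of differently numbered libraries ran from −0.36 to 0.31, so replicate numbers were not taken as pairs. Coordinates and exon lengths came from GENCODE vM21 (GRCm38), where 99.4% of listed genes were found. Alternatives used DESeq2 1.42.0 and limma 3.58.1, other filters and scalings, and each library left out, and 1 alternative, edgeR's older quasi-likelihood estimate, was chosen after seeing the data. Depth and its floor of 3 counts cover counting error only. Figures were drawn with matplotlib 3.10.9.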

Additional observations from a re-analysis of the deposited data

How the results depend on the processing

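No member had an adjusted p below 0.05 in any alternative with edgeR, DESeq2 or limma. The count of members past the screening criterion, 0 of 9, was 1 with no filter (Tnfrsf1a), 1 in the 4 libraries (Ripk3), 1 with a covariate for the libraries that stood apart (Ripk3) and 0 to 2 with each library left out (2 without Nsd2 f/f replicate 1, Tnfrsf1a and Ripk3; 1 without Nsd2 Vil-KO replicate 1, Tnfrsf1a). Pathway genes past it numbered 0, but 1 with at least 10 counts in each library, 1 with DESeq2, 4 with limma-voom, 2 in the 4 libraries, 3 with the covariate and 0 to 2 with each library left out. In the same settings 3.21%, 4.32%, 9.83%, 11% and 7.82% of all genes passed, beside 2.17%, 2%, 8%, 3.92% and 6% of the pathway genes tested, and 3.27% of all genes passed with no filter. Over all genes the count was 482, and 861 with no filter, 1440 with limma-voom, 303 with a replicate block, 1646 in the 4 libraries, 1145 with the covariate, 279 at a fold limit of 2, and 323 to 769 with each library left out (769 without Nsd2 Vil-KO replicate 2). Genes with an adjusted p below 0.05 numbered 4 with DESeq2. The cause of these shifts was not tested.

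The replicate numbers do not pair the libraries by the correlations given above, and with the replicate block 0 members passed the criterion. With it, the log2 fold change of Tnfsf10 was −0.0030. Directions turned for Fas (−0.029 in the 4 libraries, −0.16 to 0.38 with each library left out), Tnfrsf10b (0.019 with library size only, 0.12 with limma-voom, 0.15 in the 4 libraries, −0.27 to 0.17 with each left out), Tnfsf10 (−0.49 to 0.80 with each left out), Mlkl (−0.43 to 0.22), Tnf (−0.043 with limma-voom, −0.26 in the 4 libraries, −0.35 to 1.04 with each left out) and Zbp1 (−1.19 to 0.030). The median of the members lay between −0.27 and 0.23 with each library left out. Tnfrsf1a, Casp8 and Ripk3 stayed positive and Fadd and Ripk1 negative in every alternative run. For Nsd2 it was −1.16, lying between −1.42 and −0.87 with each library left out.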
